A study of Rattus norvegicus with 28 samples.

Results

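The expression of 10 immediate early genes was followed in contused rat spinal cord: Fos, Fosb, Fosl1, Junb, Egr1, Egr3, Egr4, Arc, Nr4a1 and Ier2. They were taken by gene name from the array annotation, and all 10 were found among the 35469 features tested. Each was measured by 1 probe, so that the single probe and the gene mean were the same value. Expression was measured on 28 single-dye Agilent Whole Rat Genome microarrays, 4 for each of 7 groups of adult female Sprague Dawley rats, each array holding RNA of 1 cord segment of about 1.5 cm. T0 denoted cords without contusion, which the sample labels call sham and the study calls uninjured. T1, T2, T4 and T8 were cords taken 1, 2, 4 and 8 weeks after SCI made at a thoracic level with a force of 250 kdyn. T1_NPC animals received neural progenitor cells (NPCs) right after SCI and were sacrificed at 1 week, and T2_NPC animals received NPCs 1 week after SCI and were sacrificed at 2 weeks. The NPCs came from injured adult rat cords and were grown as neurospheres. The treatment label lists tacrolimus, an immunosuppressant, from the day before transplantation to the end point. According to the study, the injured animals without NPCs were injected with medium that held no cells. Tissue was collected after an overdose of pentobarbital and perfusion with saline.

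Immediate early genes are genes whose transcription starts within minutes of a stimulus and needs no new protein, because the factors that switch them on are already bound or waiting in the cell. Synaptic activity, growth factors, cytokines and mechanical damage act on them through calcium and cAMP (which activate CREB at cAMP response elements) and through MAP kinases (which activate serum response factor with its ELK partners). Most encode transcription factors, of which the Fos and Jun proteins pair to form AP-1, whereas Arc encodes a protein that works at the synapse, and Arc and Egr4 transcripts are found mainly in neurons.

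RefSeq promoters of the rat build GRCr8 were matched by symbol for 7 of the 10 genes. Fos, Egr3 and Arc had no entry. The 250 bases before the transcription start are shown for 4 genes that differed in their response to SCI, Junb and Ier2 (higher at every time point), Nr4a1 (higher from 2 weeks) and Egr4 (lower at every time point), each 5′ to 3′ on the strand of the gene. Capitals mark the core motif of the cAMP response element, TGACG, or its reverse complement CGTCA.
Junb, chr19:40080876-40081125, plus strand: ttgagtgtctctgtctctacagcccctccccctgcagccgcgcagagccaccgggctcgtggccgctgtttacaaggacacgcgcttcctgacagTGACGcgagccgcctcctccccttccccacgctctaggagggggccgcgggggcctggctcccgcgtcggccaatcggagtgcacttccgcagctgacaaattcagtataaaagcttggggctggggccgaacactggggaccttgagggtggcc
Ier2, chr19:40399123-40399372, plus strand: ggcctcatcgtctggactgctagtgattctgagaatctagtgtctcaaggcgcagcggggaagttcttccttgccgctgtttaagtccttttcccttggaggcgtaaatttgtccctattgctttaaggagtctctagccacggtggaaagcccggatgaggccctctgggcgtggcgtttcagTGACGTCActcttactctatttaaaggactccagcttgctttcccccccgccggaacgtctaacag
Nr4a1, chr7:134259888-134260137, plus strand: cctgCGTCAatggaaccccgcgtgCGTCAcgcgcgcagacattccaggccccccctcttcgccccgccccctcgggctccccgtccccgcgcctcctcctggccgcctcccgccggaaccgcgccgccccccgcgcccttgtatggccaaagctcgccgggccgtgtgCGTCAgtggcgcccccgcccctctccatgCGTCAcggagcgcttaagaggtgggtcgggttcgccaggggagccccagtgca
Egr4, chr4:119607818-119608067, minus strand: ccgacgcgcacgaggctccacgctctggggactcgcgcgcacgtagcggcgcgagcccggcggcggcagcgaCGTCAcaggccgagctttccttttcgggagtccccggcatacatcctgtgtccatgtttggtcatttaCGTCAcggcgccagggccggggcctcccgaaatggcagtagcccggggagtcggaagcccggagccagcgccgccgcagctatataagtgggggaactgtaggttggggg
On either strand, the core motif was present in 6 of the 7 promoters (Fosl1, Junb, Egr1, Egr4, Nr4a1 and Ier2) and in 19.0% of the 27457 rat promoters of the same length. Nr4a1 held 4 core motifs and Junb 1. Ier2 held the full palindrome TGACGTCA, which starts 66 bases before the transcription start, contains the core motif on both strands and was found in 1.7% of all promoters. The serum response element (CArG box) was matched only in Egr1, with 2 matches (1.5% of all promoters). TATAAA was matched in Fosb and Junb (13.1%), GGGCGG in Fosl1 and Nr4a1 (32.4%), and the AP-1 site TGANTCA in none of the 7 (6.36%). Genes that rose and the gene that fell both held the core motif. A match describes the letters of these windows and is neither a bound site nor a cause.

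The following points bear on all values. The authors deposited the output of the scanner for each array and a table of log2 values after quantile normalization, and for 16 of the 28 arrays both name different samples: each of the 16 scanner outputs had the rank order of the column of another sample (Spearman correlation 1, at most 0.993 with the next column), always from the same position on another slide. All values below come from the value table, whose columns carry the sample names. Assignment was undisputed for 2 arrays of T0, 1 of T1, 2 of T2, 1 of T4, 2 of T8, none of T1_NPC and all 4 of T2_NPC. Slides and sessions here and below are those of the scanner output with the same rank order. By these, time-course arrays were scanned in sessions 1 and 2 and all transplanted arrays in session 3, on slides that held no other group. Transplantation and the scan session or slide then cannot be told apart. Under the deposited names T1_NPC fell in session 2, and T0 replicate 2, T1 replicate 4, T4 replicate 1 and T8 replicate 3 in session 3. Transplanted groups still shared no slide with another group. The share of probes well above background ran from 74.5% to 82.7% over the arrays. Of the 10 genes, 9 passed this limit on all 28 arrays, and Egr3 did on 25, being dim on 1 array of T0 and 2 of T1. No array showed a saturated spot for any of them.

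Does SCI change the immediate early genes weeks later, and for how long? Fos, Junb, Fosl1 and Ier2 were higher than in T0 at 1, 2, 4 and 8 weeks, while Egr4 and Arc were lower at all 4 times. Nr4a1 was higher from 2 weeks on and Egr1 at 1 and 2 weeks. Egr3 passed the test at none of the 4 times, and Fosb at none in this fit but at 3 of them with the slide as a fixed block. The test was a linear model over all 28 arrays (limma, Benjamini-Hochberg adjustment over 35469 features, threshold 0.05). It called 5 of the 10 genes higher and 2 lower at T1, 6 and 2 at T2, and 5 and 2 at both T4 and T8. Of all features, 19.1%, 17.7%, 17.5% and 18.2% were called higher at these times, in order, and 25.1%, 22.2%, 21.0% and 21.5% lower. Both directions together made 44.1%, 40.0%, 38.5% and 39.7%. The count of 2 genes called lower was thus near the share of all features at each time. Groups without overlap, as described for single genes below, were common too. At the 4 times, 16.4% to 17.4% of all features lay wholly above T0 and 20.5% to 23.6% wholly below. The median log2 fold change of the 10 genes was 0.48, 0.80, 0.49 and 0.65 in the same order, against -0.10, -0.05, -0.06 and -0.04 over all features. The 4 comparisons share the T0 arrays. With undisputed arrays only, 5, 6, 6 and 7 of the 10 genes were called: Egr1 and Egr4 were lost at T1 (adjusted p 0.0612 and 0.296), Egr1 and Nr4a1 at T2 (0.0825 and 0.0557) and Nr4a1 at T4 (0.0555). T1 and T4 then held 1 array each, which the fit assumes to vary like those of the other groups. The undisputed time-course arrays were also exactly those of the first scan session, so that dispute and session cannot be told apart. In the fit of the first scan session alone, Fos also lost its call at T1 and T4 (adjusted p 0.0729 and 0.0581) and Fosl1 at T4 (0.0569). When each scanner output kept its own sample name, limma called 0 of 10 at every time, and 0, 0, 2 and 1 passed an unadjusted p of 0.05. The shares of all features called in these other fits are not given here, so their counts do not speak of the 10 genes alone. In bulk tissue, fewer cells of a type and less RNA per cell cannot be told apart.

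**Figure D1:**
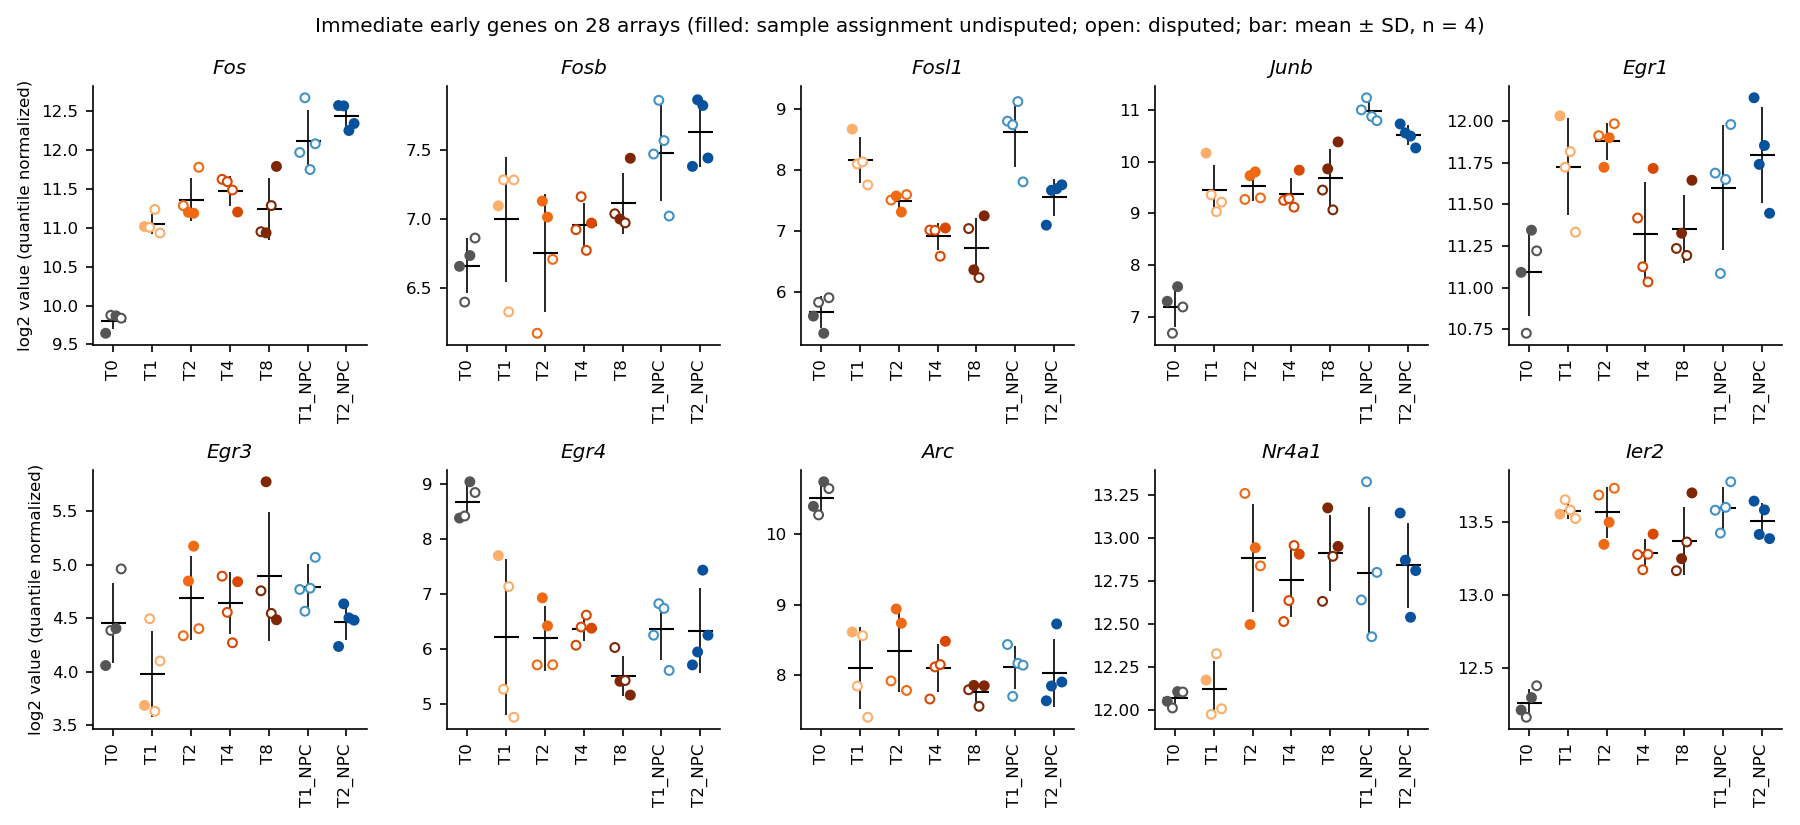
Log2 value (quantile normalized by the authors) of the 10 genes on each of the 28 arrays, by group, with the mean ± SD of 4 arrays. Filled points are arrays whose sample assignment is undisputed and open points the disputed ones. Fos, Fosl1, Junb and Ier2 lie above the T0 arrays in every other group and Egr4 and Arc below them. In the single comparisons with T0, 16.4% to 20.9% of all features lay wholly above T0 and 20.5% to 26.2% wholly below. The scales of the panels differ, and levels of different genes cannot be compared.

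Fos encodes the founding member of the AP-1 family (probe at rn4 chr6:109561099-109561158, plus strand; exon parts are not assigned, since the annotation used here is of another build). Its log2 values in T0 were 9.64, 9.88, 9.87 and 9.84. In T1 they were 11.02, 11.01, 11.24 and 10.93, and in T8 10.95, 10.94, 11.29 and 11.79. No injured array came down to the T0 range. The log2 fold change was 1.24 (SE 0.19, adjusted p 8.11e-06) at T1, 1.56 at T2, 1.67 at T4 and 1.43 (adjusted p 1.42e-06) at T8, which is 2.37-fold at the first time and 2.70-fold at the last. Neighbouring injured groups overlapped and none of these neighbours was told apart by the test.

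Junb encodes a Jun protein that pairs with Fos proteins (rn4 chr19:24832781-24832840, plus strand). Its log2 values in T0 were 7.30, 6.68, 7.58 and 7.19. In T1 they were 10.16, 9.36, 9.03 and 9.22, and in T8 9.45, 9.86, 9.07 and 10.38. Every injured array lay well above all T0 arrays, while T1 and T8 overlapped each other. The log2 fold change stayed between 2.19 (T4) and 2.50 (T8, SE 0.26, adjusted p 4.52e-08), a 4.55- to 5.67-fold difference. Junb was lower in the second scan session than in the first in each of the 5 time-course groups, by between 0.48 and 0.96 on the log2 scale. Within sessions the T1 difference was 2.73 in the first, which held 1 T1 array, and 2.27 in the second.

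Fosl1 encodes a Fos protein known from proliferating and migrating cells (rn4 chr1:208098827-208098886, plus strand). Its log2 values were 5.61, 5.83, 5.33 and 5.91 in T0 and 8.66, 8.09, 8.13 and 7.75 in T1. In T2 they were 7.51, 7.57, 7.31 and 7.59, in T4 7.01, 7.01, 6.59 and 7.05, and in T8 7.04, 6.36, 6.24 and 7.25. The T1, T2 and T4 arrays formed separate ranges in that order, and T8 overlapped T4 but stayed above T0. The log2 fold change against T0 went from 2.49 (SE 0.25, adjusted p 2.88e-08) at T1 to 1.83 at T2, 1.25 at T4 and 1.05 (adjusted p 0.00158) at T8.

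Ier2 encodes a small nuclear regulator of transcription (rn4 chr19:25160648-25160707, plus strand). Its log2 values were 12.21, 12.16, 12.30 and 12.38 in T0, 13.55, 13.65, 13.58 and 13.52 in T1, and 13.17, 13.25, 13.36 and 13.70 in T8. The injured arrays did not overlap T0 at any time. The difference was 1.31 (SE 0.11, adjusted p 1.86e-09) at T1 and 1.11 (adjusted p 4.26e-08) at T8, and Ier2 had the smallest SE of the 10 genes.

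Nr4a1 encodes an orphan nuclear receptor that acts as a transcription factor (rn4 chr7:140020442-140020501, plus strand). Its log2 values were 12.05, 12.01, 12.11 and 12.10 in T0 and 12.17, 11.97, 12.33 and 12.01 in T1, 2 overlapping ranges. In T2 they were 13.26, 12.50, 12.94 and 12.84, and in T8 12.63, 13.18, 12.89 and 12.95. No array of T2, T4 or T8 overlapped T0 or T1. The difference from T0 was 0.05 (95% confidence interval -0.31 to 0.42, adjusted p 0.853) at T1, 0.82 (adjusted p 5.97e-04) at T2, 0.69 at T4 and 0.85 (adjusted p 4.28e-04) at T8.

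Egr1 encodes a zinc finger transcription factor that responds to growth factors and synaptic activity (rn4 chr18:27347173-27347232, plus strand, 10 spots of 1 probe). Its log2 values were 11.09, 10.73, 11.35 and 11.22 in T0, 12.03, 11.72, 11.82 and 11.33 in T1, and 11.91, 11.72, 11.90 and 11.99 in T2. Only 1 T1 array lay within the T0 range, and no T2 array did. The difference was 0.63 (SE 0.19, adjusted p 0.0101) at T1 and 0.79 (adjusted p 0.00203) at T2, and then 0.23 at T4 and 0.25 at T8, where the groups overlapped T0 and the test was not passed (adjusted p 0.391 and 0.328).

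Arc, whose protein acts on glutamate receptors at synapses, and Egr4, a zinc finger factor of the EGR family, were the 2 genes that fell. Arc (rn4 chr7:112772025-112772084, minus strand, 10 spots of 1 probe) had log2 values of 10.40, 10.28, 10.75 and 10.65 in T0. In T1 they were 8.61, 7.84, 8.56 and 7.40, in T2 7.91, 8.94, 8.74 and 7.78, and in T8 7.79, 7.85, 7.55 and 7.84. Every injured array was below every T0 array by more than 1 log2 unit. The Arc difference was -2.42 (SE 0.28, adjusted p 2.56e-07) at T1, -2.18 at T2, -2.42 at T4 and -2.76 (adjusted p 4.71e-08) at T8, which is 5.35-fold lower at T1 and 6.78-fold lower at T8. Arc was also lower in the second scan session in all 5 time-course groups, by 0.11 to 0.99. Its T1 difference was -1.96 within the first session and -2.53 within the second.

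Egr4 (rn4 chr4:119765289-119765348, minus strand) had log2 values of 8.38, 8.41, 9.04 and 8.84 in T0 and of 7.70, 5.27, 7.13 and 4.76 in T1. In T8 they were 6.02, 5.41, 5.42 and 5.16. The T1 arrays were widely spread, with replicates 1 and 3 high and replicates 2 and 4 low, but all lay below T0. The difference was -2.46 (SE 0.48, adjusted p 1.99e-04) at T1, -2.48 at T2, -2.31 at T4 and -3.16 (adjusted p 1.14e-05) at T8. With undisputed arrays only, of which T1 had 1, its highest, the difference was -1.01 at T1 and -3.42 at T8. Disputed assignment, scan session and the smaller number of arrays cannot be told apart there. Leaving out any 1 array kept the T1 call (limma, adjusted p 1.63e-05 to 0.00154). Normexp background correction on the median signal made the changes of Egr4 and Fosl1 smaller, with Egr4 at -1.32 at T1 and -1.70 at T8 and Fosl1 at 1.32 and 0.44, all still called. Among others, those of Junb (1.62 at T1 and 1.87 at T8) and Arc (-1.98 and -2.21) also became smaller and stayed called.

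The fall of Arc and Egr4 stood beside a fall of neuronal transcripts. Of 13 neuron markers, 12 were lower at T1 (median log2 fold change -1.67) and 12 at T8 (median -1.75), among them Snap25 (-2.32 at T1), a protein of synaptic vesicle release, and Slc17a6 (-2.01), the vesicular glutamate transporter. None was higher. The summed level of the 13 markers was the log2 of the sum of their linear values, in which the brightest genes weigh most. It was 18.63 to 19.03 in T0 and 16.85 to 17.72 in T1, ranges that did not overlap, and 16.84 to 17.40 in T8. Their part in the result for Arc and Egr4 was not tested. Likewise, all 8 microglia and macrophage markers were higher at T1 (median 2.51) and T8 (median 2.01), with a summed level of 14.76 to 14.94 in T0, 17.94 to 18.23 in T1 and 17.33 to 17.55 in T8. At T1 the same held for 6 of 6 fibroblast and pericyte markers, 6 of 6 T cell markers, 4 of 4 Schwann cell markers and 3 of 5 neutrophil markers, while oligodendrocyte markers were lower (4 of 6) and astrocyte markers mixed (1 higher and 3 lower of 6). Of the endothelial markers 3 were higher and 1 lower of 6, of the skeletal muscle genes 2 and 2 of 6, and neither of 2 red blood cell genes was called. The part of these cells in the rise of Fos, Fosl1, Junb, Ier2 and Nr4a1 was not tested.

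For Fosb the outcome of the test depended on the fit, and Egr3 passed it at no time after SCI. Fosb encodes a Fos protein whose truncated form accumulates on repeated stimulation (rn4 chr1:78668672-78668731, minus strand). Its log2 values ran from 6.40 to 6.86 in T0 and from 6.17 to 7.44 over the 16 injured arrays. At T8 all 4 arrays (7.04, 7.00, 6.97 and 7.44) lay above T0, a difference of 0.45 with a 95% confidence interval of -0.002 to 0.90 (adjusted p 0.110). With the slide as a fixed block Fosb was called higher at T1 (0.45, adjusted p 0.0359), T4 (0.44, adjusted p 0.0426) and T8 (0.59, adjusted p 0.00907). The T8 call was also made with the slide as a random block (0.51, adjusted p 0.0406) and with only the compared groups (adjusted p 0.0457), and the T1 call without T1 replicate 3 (0.56, adjusted p 0.0320). Groups separated in the same direction in 17.4% of all features at T8. Egr3 encodes another zinc finger factor of the EGR family (rn4 chr15:50478983-50479042, plus strand). It had T0 values of 4.06, 4.38, 4.40 and 4.96 and overlapped T0 in every injured group, with differences from -0.47 at T1 to 0.44 at T8.

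**Figure D2:**
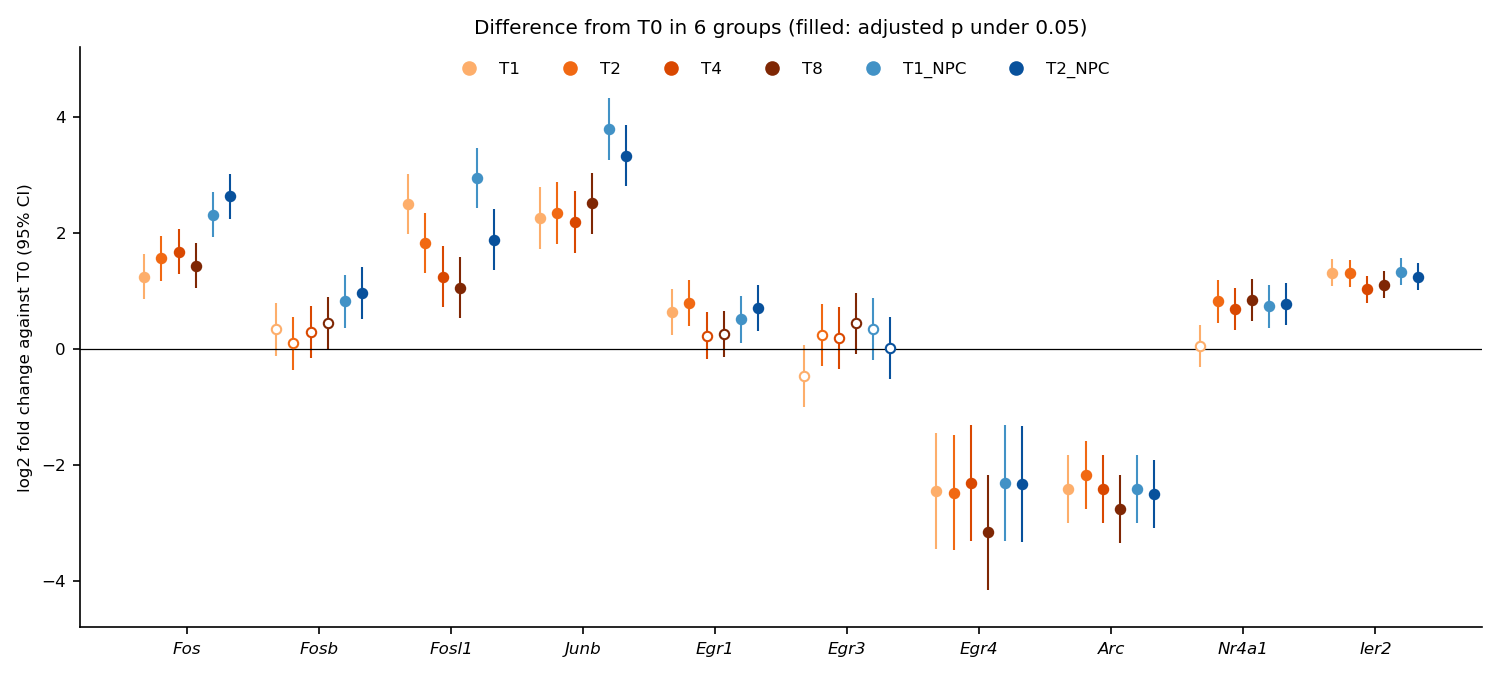
Log2 fold change against T0 (vertical axis) of the 10 genes in the 4 injured and the 2 transplanted groups, with 95% confidence intervals from limma. Filled points passed an adjusted p of 0.05. Fosl1 steps down from 2.49 at T1 to 1.05 at T8, Nr4a1 steps up after T1, and Arc and Egr4 stay between -2.18 and -3.16.

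Did the genes move between injured time points? Fosl1 and Nr4a1 did so in opposite directions. From T1 to T8, Fosl1 fell by 1.44 on the log2 scale (SE 0.25, adjusted p 3.82e-04), and Nr4a1 rose by 0.79 (SE 0.18, adjusted p 0.00400), neither with overlap between the groups. Egr3 was also called higher in T8 than in T1, by 0.91 (adjusted p 0.0227). Its T1 values were 3.68, 4.49, 3.63 and 4.10 and its T8 values 4.75, 5.77, 4.54 and 4.48, so that the lowest T8 value lay just under the highest T1 value. The Egr3 call was lost without T8 replicate 2 (0.62, adjusted p 0.122), without T1 replicate 1 (0.81, adjusted p 0.0725) or without T1 replicate 3 (0.80, adjusted p 0.0752), and 2 of the T1 values were not well above background. Normexp on the median signal gave 0.19 (adjusted p 0.185), and the call was also lost with the slide (adjusted p 0.0525) or the scan session (0.0511) as a fixed block and with only the compared groups (0.140). Fosl1, Nr4a1 and Egr3 were the calls of T8 against T1, where 9.87% of all features were called (5.45% higher and 4.42% lower). The undisputed arrays of T1 and T8, which are those of the first scan session, gave -1.86 for Fosl1 and 0.89 for Nr4a1. Within scan sessions Nr4a1 was not called in either (0.89, adjusted p 0.160, and 0.66, adjusted p 0.0739), and Fosl1 was not called in the first (-1.86, adjusted p 0.123).

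Nr4a1 made its step between T1 and T2, where it was the only 1 of the 10 genes called (0.76, SE 0.18, adjusted p 0.0274, against 1.48% of all features called and 0.815% called higher). All 4 T2 arrays were above all 4 T1 arrays. The call was lost without T1 replicate 1, 2 or 4 or T2 replicate 1 or 3, with adjusted p between 0.0585 and 0.136, and with only the compared groups (0.134), and the difference was 0.55 within the first scan session and 0.95 within the second. Fosl1 did not pass over the same step (-0.67, adjusted p 0.216), although its groups did not overlap. By limma, none of the 10 genes was called between T2 and T4 or between T4 and T8, where 0.0761% and 0.0902% of all features were called. At an unadjusted p under 0.05 there were 3 between T2 and T4 (Fosl1, Egr1 and Ier2, all lower in T4) and none between T4 and T8. Of the 35469 features, 3198 and 1716 passed that unadjusted limit in these 2 comparisons.

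What did NPC transplantation add? Fos and Junb were higher in transplanted than in time-matched injured cords after both transplantations, and the genes that had fallen, Arc and Egr4, were called in neither comparison. In T1_NPC, Egr3 and Nr4a1 were called higher too, and in T2_NPC Fosb. No gene of the 10 was called lower. T1_NPC holds no undisputed array. In T2_NPC against T2 the undisputed arrays gave 1.24 for Fos and 0.75 for Junb, both called, and -0.81 for Arc (adjusted p 0.0840), against -0.32 over all arrays. Under the assignment of the scanner outputs limma called 0 of 10 in both comparisons, and 1 and 3 passed an unadjusted p of 0.05. The share of all features called in that fit is not given here. In the main fit the counts were 4 of 10 in T1_NPC against T1 and 3 of 10 in T2_NPC against T2. There 5.45% and 4.62% of all features were called higher, 6.46% and 4.85% lower, and 11.9% and 9.47% in either direction.

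Fos had log2 values of 11.97, 12.67, 11.75 and 12.08 in T1_NPC, all above the 10.93 to 11.24 of T1. It had 12.57, 12.57, 12.25 and 12.34 in T2_NPC, all above the 11.19 to 11.78 of T2. No transplanted array overlapped its time-matched injured group. Of all features, 8.12% (T1_NPC against T1) and 9.97% (T2_NPC against T2) were separated with the transplanted group higher. These shares also stand beside the separated groups of Junb, Fosb and Nr4a1 below. The difference was 1.07 (SE 0.19) in each, with an adjusted p of 7.23e-04 in the first and 8.69e-04 in the second.

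Junb had log2 values of 11.00, 11.23, 10.87 and 10.79 in T1_NPC against 9.03 to 10.16 in T1. In T2_NPC its values were 10.73, 10.55, 10.49 and 10.26 against 9.27 to 9.80 in T2. Neither pair of groups overlapped. The difference was 1.53 (SE 0.26, adjusted p 4.74e-04), or 2.89-fold, and 0.99 (adjusted p 0.0170), or 1.98-fold. The second was lost without T2 replicate 1 (adjusted p 0.0570) or T2_NPC replicate 1 (adjusted p 0.0522).

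Fosb had log2 values of 7.38, 7.86, 7.82 and 7.44 in T2_NPC and of 6.17, 7.13, 7.01 and 6.71 in T2, without overlap. Its difference of 0.87 (SE 0.22, adjusted p 0.0139) became 0.56 with the undisputed arrays (adjusted p 0.0705) and 0.54 with normexp (still called, adjusted p 0.00904), and the call was lost without T2 replicate 1 (0.68, adjusted p 0.0635) or T2_NPC replicate 2 (adjusted p 0.0519) and with only the compared groups (adjusted p 0.0587). In T1_NPC the Fosb values of 7.47, 7.86, 7.57 and 7.02 overlapped T1 (0.48, adjusted p 0.155). Against T0, Fosb was called in both transplanted groups, at 0.82 (adjusted p 0.00304) and 0.96 (adjusted p 7.69e-04).

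Nr4a1 in T1_NPC had log2 values of 12.64, 13.33, 12.43 and 12.80, all above T1 (11.97 to 12.33) and within the 12.50 to 13.26 of T2 on 2 of the 4 arrays. The difference from T1 was 0.68 (adjusted p 0.0145), and 0.50 without T1_NPC replicate 2 (adjusted p 0.0637). This call was also lost with the slide as a random block (adjusted p 0.0553) and with only the compared groups (0.120). In T2_NPC its values of 13.15, 12.87, 12.54 and 12.81 overlapped T2 (-0.04, interval -0.41 to 0.32). Egr3 in T1_NPC had 4.77, 4.56, 4.78 and 5.07 against T1 values up to 4.49. Its difference of 0.82 (adjusted p 0.0398) lost its call without any of T1 replicates 1, 3 or 4 or T1_NPC replicates 1, 3 or 4 (adjusted p 0.0559 to 0.121), with the slide as a random block (0.115) and with only the compared groups (0.0891). Normexp on the median signal gave 0.18 (adjusted p 0.177).

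**Figure D3:**
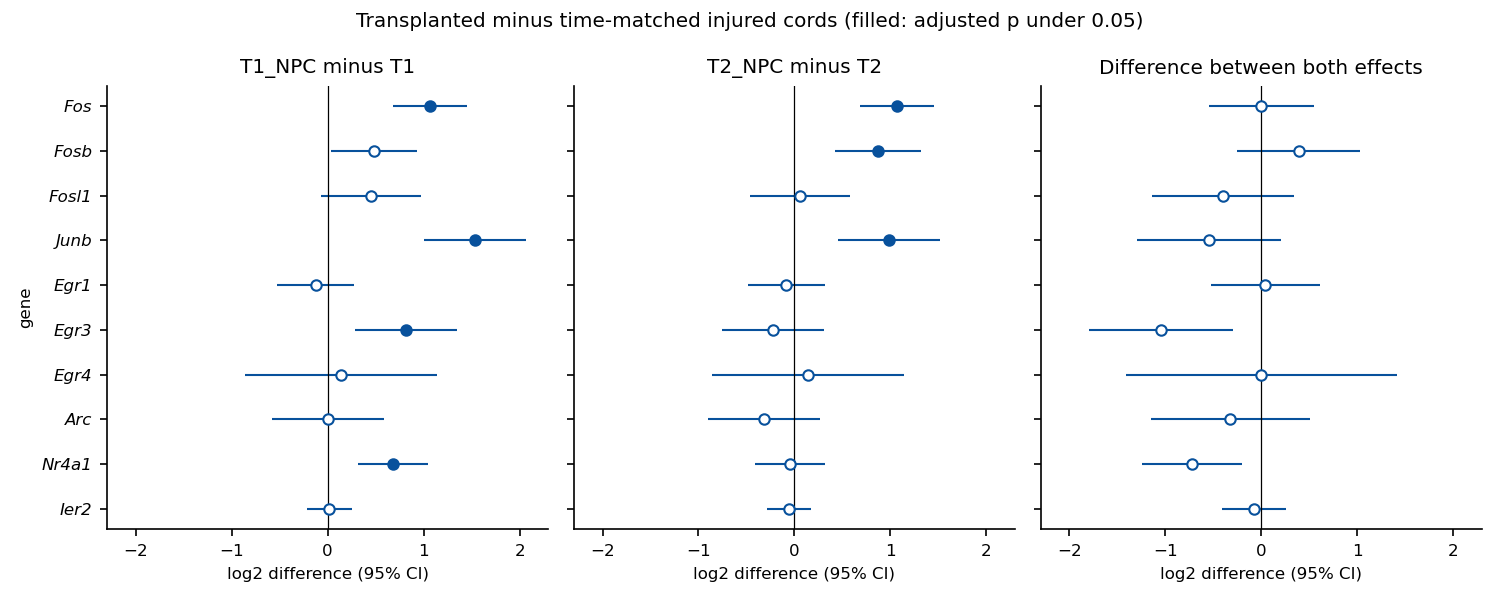
Log2 difference (horizontal axis, 95% confidence interval) of T1_NPC from T1, of T2_NPC from T2, and between these 2 differences, for the 10 genes. Filled points passed an adjusted p of 0.05. Fos is at 1.07 in both comparisons, and the third panel holds no filled point.

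Egr1, Ier2, Arc and Egr4 were called in neither comparison, and the intervals of their differences in T1_NPC and T2_NPC held 0. For Egr1 these were -0.53 to 0.27 and -0.49 to 0.32, and for Ier2 -0.21 to 0.25 and -0.29 to 0.17. For Arc they were -0.58 to 0.59 and -0.90 to 0.27, and for Egr4 -0.86 to 1.14 and -0.86 to 1.14. Fosl1 differed by 0.45 in T1_NPC and 0.06 in T2_NPC, neither called (adjusted p 0.258 and 0.932). Without T1_NPC replicate 4 the first was 0.72 and called (adjusted p 0.0464). Whether the effect of transplantation differed between the acute and the subacute time was tested in the same fit. None of the 10 genes was called (0.299% of all features were). At an unadjusted p under 0.05 there were 2, Egr3 (-1.04, adjusted p 0.253) and Nr4a1 (-0.72, adjusted p 0.250). Of the 35469 features, 3969 passed that unadjusted limit here.

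Against T0, 9 of 10 genes were called in each transplanted group, 7 higher and 2 lower, where 52.7% (T1_NPC) and 47.7% (T2_NPC) of all features were called (22.8% and 21.2% higher, 29.9% and 26.5% lower). Egr3 was the exception in both. The 2 genes called lower did not exceed the share of all features called lower. The call of Egr1 in T1_NPC (0.51, adjusted p 0.0318) was lost with the slide as a random block (0.0630), with only the compared groups (0.102), when scaled to the 75th percentile (0.42, adjusted p 0.0926), and without T0 replicate 1 or 2 or T1_NPC replicate 1, 3 or 4 (0.0560 to 0.126). Junb reached 3.79 above T0 in T1_NPC and 3.33 in T2_NPC, Fos 2.31 and 2.63, and Fosl1 2.94 and 1.88. Arc remained at -2.41 and -2.50 and Egr4 at -2.31 and -2.34, with no array of either group reaching T0.

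With transplantation, genes of oligodendrocytes, endothelium, red blood cells and muscle were called. No neuron, astrocyte, microglia and macrophage, fibroblast, Schwann cell, T cell or neutrophil marker was called in either comparison. The endothelial claudin gene Cldn5 was higher in both (0.51 and 0.52). In T2_NPC against T2 the myelin genes Mbp (1.43) and Mobp (0.70) and the haemoglobin gene Hbb (2.11) were higher, and in T1_NPC against T1 the muscle actin gene Acta1 was lower (-0.66). The muscle myosin gene Myh4 was also called in T2_NPC, but its probe was well above background on 1 of the 28 arrays. The summed level of the 6 oligodendrocyte markers was 17.95 to 18.26 in T2 and 18.43 to 18.56 in T2_NPC, ranges that did not overlap. Of all features, 9.97% were separated in T2_NPC against T2 with the transplanted group higher. Sums of linear values lean on their brightest genes, here and for the red blood cell genes. The summed level of the 2 red blood cell genes was 10.84 to 11.98 in T2 and 12.37 to 14.50 in T2_NPC, ranges that did not overlap, and 11.82 to 12.80 in T1 and 11.98 to 13.28 in T1_NPC. Their part in the differences of Fos, Fosb and Junb was not tested.

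Other immediate early genes were counted from lists. Of 19 further immediate early transcription factors, 12 were higher and none lower at T1, and 15 and none at T8 (median log2 fold change 0.94 and 0.88, against -0.10 and -0.04 over all features). Among the highest at T1 were Atf3 (4.61), a stress-induced factor of the ATF family, Egr2 (3.68), which is also a factor of myelinating Schwann cells, Fosl2 (2.14), Ier5 (2.06) and Myc (1.75). Npas4, a factor of neurons driven by calcium, was well above background on 1 of the 28 arrays, so that it gives no comparison. Nr4a3, of the same family as Nr4a1, was also higher in T2 than in T1 (0.84, adjusted p 0.0256), as the only 1 of these 19.

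Of 22 immediate early genes that encode effectors, 13 were higher and 2 lower at T1 and 11 and 5 at T8, where 19.1% and 25.1% of all features were called higher and lower at T1 and 18.2% and 21.5% at T8. The share of effectors that were lower at T8 was thus near that of all features. The genes higher at T1 included Ctgf (2.33) and Cyr61 (2.25), which encode matrix-associated signalling proteins, the phosphatase gene Dusp2 (2.16) and the kinase gene Sgk1 (2.15). Those lower were Bdnf (-1.26), a neurotrophin, and Inhba (-0.61), an activin subunit. At T8, Vgf (-1.47), a neuropeptide precursor, Homer1 (-1.04), a scaffold of synapses, and Rgs2 (-0.58) were lower as well.

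Of 18 measured genes for upstream kinases and transcription factors, 6 were higher and 5 lower at T1 and 3 and 5 at T8. Beside the shares of all features just given, the lower count at T1 and the higher count at T8 were near the background. Higher at T1 were, among others, Mef2a (0.98), Mkl1 (0.76), Elk4 (0.68) and Creb1 (0.58). Lower were the calcium-dependent kinase genes Camk4 (-1.73) and Camk2a (-1.46), the catalytic subunits of protein kinase A, Prkacb (-0.98) and Prkaca (-0.70), and Rps6ka5 (-0.67). Srf itself was not called (0.21 at T1). With transplantation the share of the 3 lists that was called was near that of all features (11.9% in T1_NPC against T1 and 9.47% in T2_NPC against T2). In T1_NPC against T1 Btg2 (0.98) was the only factor, Dusp1 (1.51), Cyr61 (1.39) and Sgk1 (0.70) were the effectors, and Map2k1 (0.59) and Elk4 (0.36) rose while Mef2a fell (-0.44). In T2_NPC against T2 no factor was called, Trib1 rose (0.63) and Plk2 fell (-0.55), and Map2k1 (0.68) and Elk4 (0.42) rose while Rps6ka3 fell (-0.50).

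**Figure D4:**
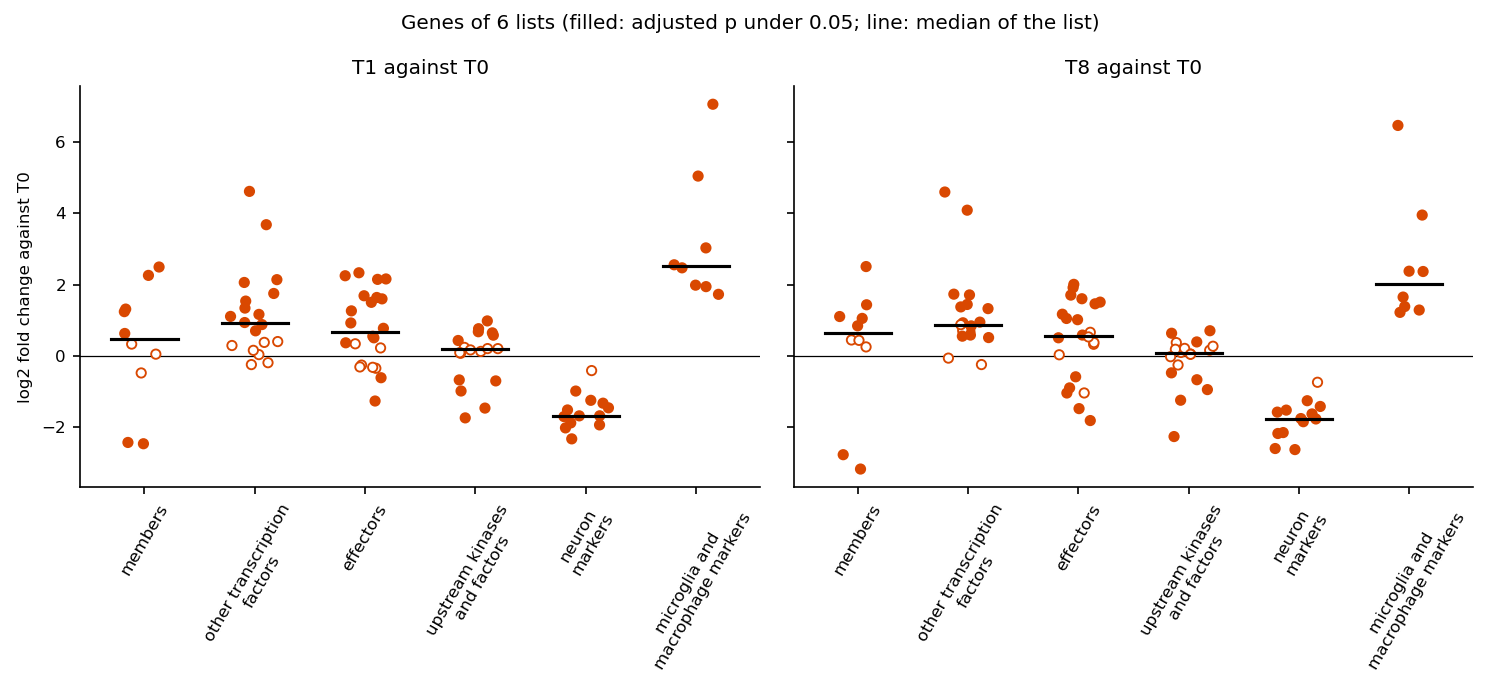
Log2 fold change against T0 of each gene of 6 lists at T1 and T8, with the median of each list as a line. Filled points passed an adjusted p of 0.05. The 10 immediate early genes and the effectors spread to both sides of 0, the neuron markers lie below 0 and the microglia and macrophage markers above it.

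Did the genes vary together between animals of 1 group? For each array the deviation from its group mean was taken, over 28 arrays. Among the 45 pairs of genes the median Pearson correlation was 0.08 (range -0.42 to 0.76), and 18 pairs were below 0. Egr1 and Ier2 were the clearest pair, with Pearson's r 0.70 and Spearman's rho 0.77 (permutation tests within groups, p 1e-05 each, the smallest that 100000 permutations can give, and adjusted p 5.5e-04 over 55 relations). Arc and Egr4 gave r 0.76 and rho 0.70 (permutation p 0.00141 and 0.00310, adjusted p 0.0258 and 0.0426). Without the 2 arrays farthest out the correlations were 0.69 and 0.68, and with the means of each scan session within a group removed 0.77 and 0.76.

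Egr4 also followed the mean of the 13 neuron markers from array to array, with r 0.71 and rho 0.78 (permutation p 2.5e-04 and 1.9e-04, adjusted p 0.00687 and 0.00522), 0.70 without the 2 arrays farthest out and 0.72 with session means removed. For Arc the values were r 0.63 and rho 0.59 (permutation p 0.0117 and 0.0157, adjusted p 0.129 and 0.172), and 0.45 with session means removed. In T1, where Egr4 had its largest SD (1.42), the arrays with high Egr4, replicates 1 and 3, were also those with high Arc. All these permutation tests were added after the values had been seen. The share of all features that follow the neuron markers as closely is not given here. What lies behind these relations was not tested. Fosb and Junb gave r 0.51 and rho 0.60 (permutation p 0.0139 and 0.00274, adjusted p 0.129 and 0.0426).

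**Figure D5:**
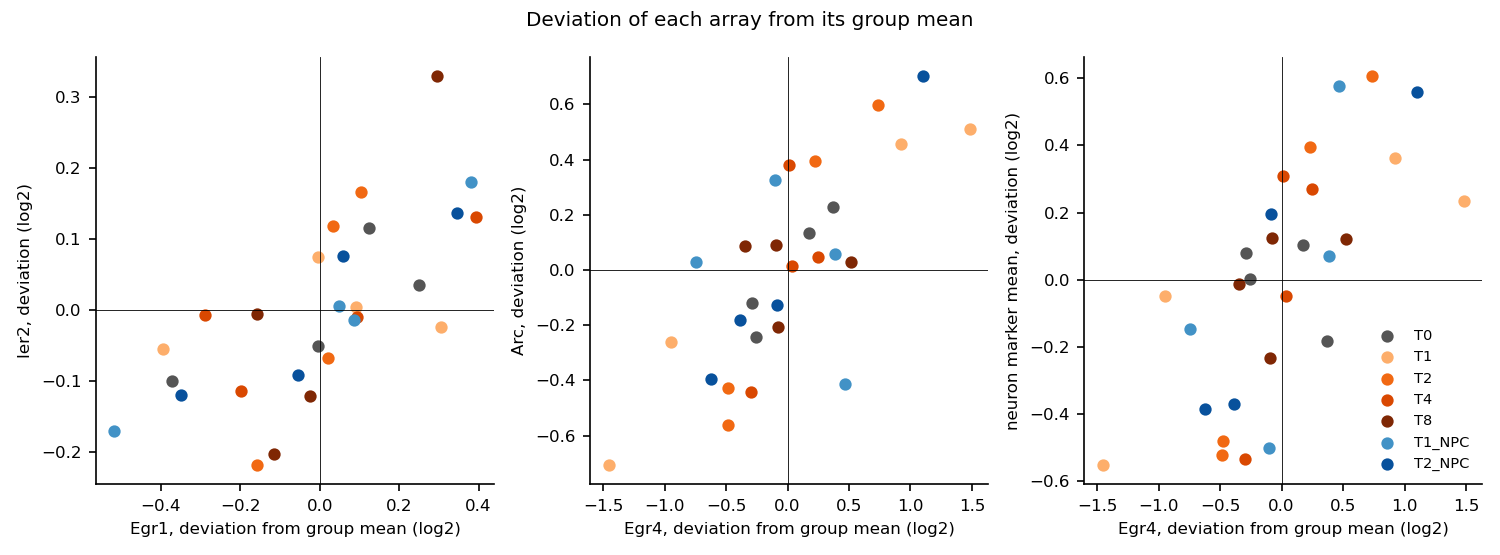
Deviation of each of the 28 arrays from its group mean (log2 units) for Egr1 against Ier2, Egr4 against Arc, and Egr4 against the mean of 13 neuron markers, with groups in colour. Over the 28 arrays the points of each panel run from lower left to upper right (r 0.70, 0.76 and 0.71). Single groups do not all do so. In T1_NPC, replicate 2 had the highest Egr4 (0.47) and the lowest Arc (-0.41). In T0, replicate 3 had the highest Egr4 (0.37) and the lowest neuron marker mean.

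Over the 28 arrays, the genes whose pattern was most like the mean of the 10 centred and scaled profiles were Pcbp2 (Pearson correlation 0.87), Rnf31 (0.87), Arbp (0.87), Dyt1 (0.85) and Med10 (0.85), out of 10958 candidates well above background on all arrays. The 10 genes move in both directions, which blurs this mean. By Spearman correlation the first 5 were Btg2, Slpil2, Pcbp2, Rnps1 and Rbm12, with 1 gene shared.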

How the data were processed

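The authors scanned 28 Cy3 arrays with Agilent Feature Extraction 10.7.1.1 and deposited, per array, intensity values per spot, background subtracted and detrended but not normalized between arrays. They also deposited a table of log2 values after quantile normalization, on which the main results rest. Control spots were left out, 43379 spots were averaged to 41012 probes and these to 35469 features by gene name, with no filter on dim probes. Slide and scan session were taken from the scanner output with the same rank order as the column. Group means of all 7 groups were fitted in 1 linear model over the 28 arrays with limma 3.58.1 in R 4.3.3 (empirical Bayes, 2.26 prior degrees of freedom), with two-sided tests and Benjamini-Hochberg adjustment over all features. Precision was limited by the number of arrays, 4 per group. In data simulated for T1 against T0 over 35469 features with 200 changed, 86% of log2 changes of 2 and 53% of those of 1 were recovered. Of the calls made there, 7.33% were false. The real comparison called 15657 features, far more than the 200 changed in the simulation. The adjustment was therefore stricter in the simulation, and these shares do not give the recovery of the real test. Within-group correlations were tested by permuting deviations within groups (100000 permutations), a test added after the values had been seen.

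The 10 genes and all lists were chosen with earlier results of these data known. All 10 genes are named in every comparison. From the lists, at most the 5 called genes with the largest change in each direction were named, and the genes Npas4 and Srf, which were not called, were named after their values were seen. Crtc1, Mef2c, Rbfox3 and Hba-a1 were not found on the array by name. The alternatives covered the scanner intensities under either assignment, other scalings, background correction and filters, fits on fewer arrays, slide, session and replicate blocks, and each array left out in turn. The annotation names probe positions on rn4, and promoters are those of RefSeq on GRCr8, counted from the gene start.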

Additional observations from a re-analysis of the deposited data

Results flagged for a closer look

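Among the 70 sets of 4 arrays (10 genes in 7 groups), 5 held a value set apart from the other 3 by a gap that exceeded the 95% critical value of Dixon's test, where chance alone gives about 1 set in 20. Fos was low in T0 replicate 1 (9.64, the next array at 9.84) and high in T2 replicate 4 (11.78, the next at 11.29). Fosb was high in T8 replicate 4 (7.44, the next at 7.04). Fosl1 was low in T4 replicate 3 (6.59, the next at 7.01) and in T2_NPC replicate 1 (7.09, the next at 7.66).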

How the results depend on the processing

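The assignment of arrays to samples was the choice on which most depended. When each scanner output kept the sample it was deposited with, limma called 0 of the 10 genes in each of the 13 comparisons (13 of 130 tests at an unadjusted p under 0.05). The share of all features called in that fit is not given here, so this count does not speak of the 10 genes alone. Among the results called in the main fit, the direction then turned for Egr3 in T1_NPC against T1 (-0.26) and Fos in T2 against T0 (-0.14). It also turned for Fosb in T1_NPC against T0 (-0.48), Fosl1 in T8 against T1 (0.031) and Junb in T1_NPC against T1 (-0.14). Nr4a1 turned in T2 against T0 (-0.15) and against T1 (-0.10). Some results that the main fit did not call turned as well, such as Fosb in T1_NPC against T1 (-0.54). The median of the 10 genes became 0.066, -0.020 and 0.37 for T1, T2 and T8 against T0, 0.28 and 0.59 for T1_NPC and T2_NPC against T0, -0.11 and 0.36 for T1_NPC against T1 and T2_NPC against T2, -0.13, 0.27 and 0.21 for T2 against T1, T4 against T2 and T8 against T1, and 0.30 for the difference between the transplantation effects. Which assignment is right was not tested beyond the rank orders.

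Undisputed arrays gave 0 calls for T2 against T1 (median -0.077) and 1 for T8 against T1, and medians of 0.72 and 0.94 for T4 and T8 against T0. Arrays of the first scan session alone, the same time-course arrays, gave the same medians, 4 calls for T1 and for T4 against T0, and 0 for T2 and T8 against T1. The second session gave 0 and 1 for the last 2, and a median of 0.98 for T2 against T0. T1_NPC against T1 had 2 calls with only the compared groups, with the slide as a random block (correlation 0.173) and with a change of at least 2-fold. That size limit left 1 call in T2_NPC against T2, 0 in T2 against T1 and 1 in T8 against T1. Only the compared groups also gave 0 for T2 against T1. Scaling to the 75th percentile called 1 gene for the difference between the transplantation effects (Egr3, -1.44, adjusted p 0.0376). Normexp on the median signal, chosen after seeing the data, moved the median to 0.27 for T1_NPC against T1, 0.69 for T2_NPC against T0 and 0.35 for T8 against T0. Spearman correlation shared 1 of the 5 most similar genes.

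Same-numbered arrays did not deviate together (median correlation 0.002 over 84 pairs, 19 above 0.1), and the replicate block changed 1 count, T2 against T1, to 0. Leaving out 1 array gave 0 to 1 calls in T2 against T1, 1 to 3 in T2_NPC against T2 and 3 to 4 in T1_NPC against T1, and medians of 0.37 to 0.66 for T1_NPC against T1, 0.0057 to 0.31 for T2 against T1 and -0.49 to -0.073 for the difference between the transplantation effects. The cause of these changes was not tested, and the shares of all features called in these fits are not given here.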
